A study of Canis lupus familiaris with 33 samples.

Results

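Short single-exon genes, over 300 and under 900 bp long, are gene models whose only transcribed part is 1 exon. The dog gene table held 616 of them among 30951 genes. They were chosen by a rule on the annotation, set with earlier results of these data known. It took chromosomes 1 to 38, 1 distinct exon after overlapping intervals were merged, and a length over 300 and under 900 bp. The same rule left out 31 genes of 4 exact lengths on chromosome 35, which lie between 23977201 and 25061935. The genes that met it are called members below.

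RNA came from oligodendroglioma, a brain tumour of glial cells, and from brain labelled as control, sampled at necropsy 1 to 18 h after death. Fresh-frozen tissue gave 6 tumour libraries (1 grade II, 5 grade III) and 6 control libraries. Formalin-fixed, paraffin-embedded (FFPE) tissue gave 11 tumour libraries (2 grade II, 9 grade III) and 10 control libraries. The 33 libraries were made from 25 dogs, and 8 dogs (5 with tumour, 3 controls) gave a library of each kind. No treatment is labelled for any group, and each library stands for 1 dog. Stated ages ran from 4.7 to 10 years in 5 fresh-frozen tumours and from 2.8 to 10.2 years in 5 fresh-frozen controls. They ran from 4.7 to 12 years in 9 FFPE tumours and from 2 to 8 years in 5 FFPE controls. French Bulldogs gave 3 of the fresh-frozen tumours and 2 of the fresh-frozen controls, and 6 of the FFPE tumours and 5 of the FFPE controls. Boxers gave 1 of the fresh-frozen tumours and 0 of the fresh-frozen controls, and 4 of the FFPE tumours and 4 of the FFPE controls. The other fresh-frozen tumours came from a Border Terrier and a Pomerian, and the other fresh-frozen controls from a Hovawart, a Mongrel, a Berner sennenhund and a Bolonka Swetna. The last FFPE tumour came from a Pomerian and the last FFPE control from a Bolonka Swetna. The study compared tumour with control brain and asked how archived tissue compares with frozen tissue.

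Short genes without introns have several origins. Some are intact genes that never had introns in mammals, such as those of the core histones, whose messages are made mainly while DNA is copied. Others are retrocopies, which arise when a messenger RNA is reverse transcribed and inserted elsewhere in the genome, and which often lack a promoter of their own. Because a retrocopy resembles its parent gene, reads from one can align to the other, and a count cannot always be assigned to a single source. Many short non-coding RNAs made by RNA polymerase III also lack introns and are abundant in every cell.

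The table pairs no identifier with a gene name, and the gene name table at hand paired 0 of the members with one. No member can therefore be given a function, and the labelled tissues could not be checked against marker genes. Members are described by chromosome, position (CanFam3.1) and length. The median length was 475.5 bp, with 340 members under 500 bp, 181 from 500 to under 700 bp and 95 of 700 bp or more. The lengths of 607 members (98.5%) were multiples of 3, the mark of a coding sequence annotated without untranslated parts. Among multi-exon genes 42.5% had such a length, among single-exon genes of at most 300 bp 37.3%, and among those of 900 bp or more 97.6%. Most members therefore carry a coding length, and only 9 did not.

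Members lay on all 38 chromosomes, with 3 to 39 on each, 276 on the plus and 340 on the minus strand. Outside any other gene lay 439, and 163 lay inside a gene of the opposite strand only. The other 14 lay in an intron of a gene on their own strand, and none shared an exon with another gene on its strand. Some stood in arrays of like length. On chromosome 17 (37754014 to 37840905) 8 members of exactly 321 bp held 7 counts in all libraries together. On chromosome 11 (40726568 to 40766296) 7 members of exactly 564 bp held 0 counts, and on chromosome 2 (35912228 to 35994561) 11 members of 504 to 528 bp held 9. These arrays were almost without counts. How far reads from near-identical copies could be aligned to 1 of them was not tested. In all, 117 members shared chromosome and length with another member, and 24 of those had enough counts to be tested in fresh-frozen tissue.

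Total counts per library ran from 9765907 to 26726025 in fresh-frozen tissue and from 406406 to 32584840 in FFPE tissue. Of the fresh-frozen libraries, those of tumour dogs 60127 and 60461 and control dogs 60126 and 60462 stood apart from the others. They lay together on the second axis of variation within groups, which carried 24.4% of that variance, so the counts of calls, and the calls of the members named by rule, are also given without them. The counts mix all cells of a sample, so fewer cells of a type and less RNA per cell cannot be told apart.

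Of the 616 members, 579 had at least 1 count in some library and 68 had one in every library. Libraries were thinned to 406406 counts, the smallest total, to compare detection at equal depth. At that depth 183.8 ± 9.56 members had a count in fresh-frozen tumours, against 154.2 ± 8.91 in fresh-frozen controls (SD, n = 6 each). In FFPE tissue the numbers were 168.6 ± 17.6 in tumours (n = 11) and 160.9 ± 22.6 in controls (n = 10). Every fresh-frozen tumour (174 to 199 members) lay above every fresh-frozen control (142 to 168), while the FFPE groups overlapped. Over all genes, 13360 ± 415 had a count in fresh-frozen tumours and 13310 ± 426 in fresh-frozen controls, and these groups overlapped. In FFPE tissue 14140 ± 428 genes had one in tumours and 14740 ± 2180 in controls. FFPE control 60462, the highest of its group at 206 members, was also the highest over all genes, at 20671.

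Members took a larger share of all counts in fresh-frozen tumours than in controls. The share was 0.521% ± 0.184 in fresh-frozen tumours (SD, n = 6; 0.351% to 0.861%) and 0.256% ± 0.0445 in fresh-frozen controls (n = 6; 0.213% to 0.314%), with no overlap. In FFPE tissue it was 0.506% ± 0.190 in tumours (n = 11; 0.198% to 0.842%) and 0.324% ± 0.0912 in controls (n = 10; 0.212% to 0.507%), and the groups overlapped. The shares are a description over chosen genes and were given no test. The share of mitochondrial counts also differed, at 9.38% ± 7.08 in fresh-frozen tumours and 14.1% ± 3.54 in fresh-frozen controls. With mitochondrial genes taken out of the totals the members' share was 0.569% ± 0.174 in fresh-frozen tumours and 0.298% ± 0.0437 in fresh-frozen controls. The share thus stood apart between the fresh-frozen groups on either total.

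**Figure D1:**
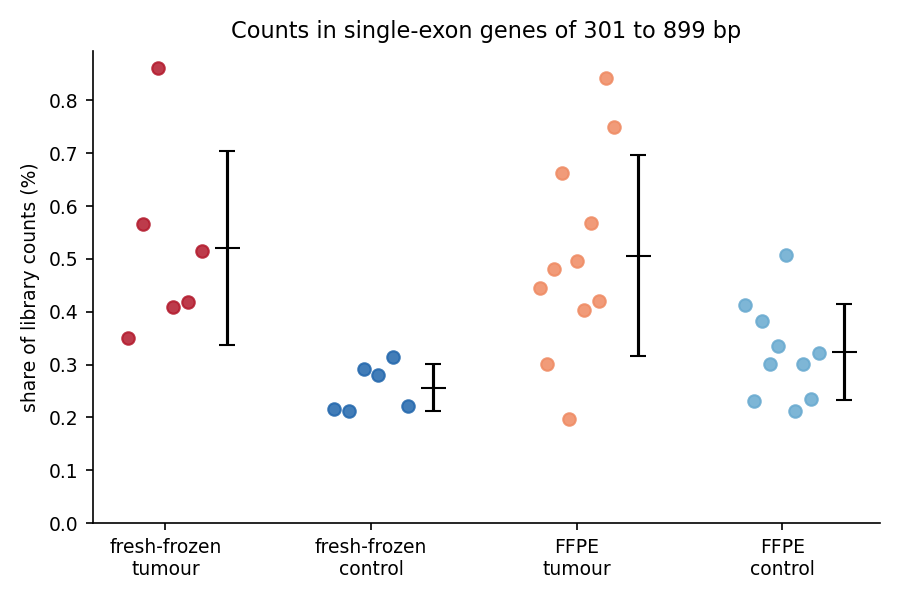
Share of each library's counts (%) held by the 616 members. Points are libraries and bars are the mean ± SD of each group. All 6 fresh-frozen tumours (0.351% to 0.861%) lie above all 6 fresh-frozen controls (0.213% to 0.314%), and the FFPE groups overlap.

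A few members held most of these counts. The 8 most abundant took 56.7% of the members' counts in fresh-frozen tumours and 43.1% in fresh-frozen controls, 69.1% in FFPE tumours and 59.7% in FFPE controls. In contrast, the mean level was below 1 CPM (a count relative to the size of its library) for 302 members in fresh-frozen tumours and for 357 in fresh-frozen controls, apart from 103 and 83 members with no count at all. The CPM given for single genes are scaled by edgeR's TMM factors within fresh-frozen or within FFPE libraries. The exception is the member called between FFPE and fresh-frozen tissue further on, whose CPM carry no such factors.

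The most abundant per length was a member of 433 bp on chromosome 15 (17705308 to 17705740), outside any other gene and one of the 9 whose length is not a multiple of 3. Its lowest, median and highest levels were 282, 722 and 3750 CPM in fresh-frozen tumours, against 145, 346 and 772 CPM in fresh-frozen controls. The groups overlapped, with 2 of 6 tumours above every control. Its log2 fold change was 1.65 ± 0.58 (SE; edgeR adjusted p = 0.0448), and the call was lost when any 1 of 9 of the 12 libraries was left out, all but tumours 60127 and 60636 and control 60460, and without the 4 dogs (0.101). Without tumour 60631, the highest library, the log2 fold change was 0.78 (edgeR adjusted p = 0.178). In FFPE tissue the levels were 153, 1830 and 5230 CPM in tumours and 192, 1160 and 4550 CPM in controls (0.48 ± 0.46, edgeR adjusted p = 0.466). This 1 gene held 24.6% of the members' counts in fresh-frozen tumours, 14.4% in fresh-frozen controls, 41.5% in FFPE tumours and 40.3% in FFPE controls. Without it the members' share of counts was 0.393% ± 0.0728 in fresh-frozen tumours and 0.220% ± 0.0318 in fresh-frozen controls, still without overlap (0.327% to 0.495% and 0.186% to 0.264%).

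Next came a member of 326 bp on chromosome 34 (26567413 to 26567738) and one of 328 bp on chromosome 27 (38491746 to 38492073). Both lie in introns of genes on their own strand, and they were the only 2 of the 14 intronic members with enough counts to test. The 326 bp gene had 189, 288 and 615 CPM in fresh-frozen tumours and 91.9, 181 and 267 CPM in fresh-frozen controls (log2 fold change 0.93 ± 0.34, edgeR adjusted p = 0.0506). In FFPE tissue it had 142, 282 and 727 CPM in tumours and 61.4, 128 and 332 CPM in controls, and it was called higher (1.15 ± 0.34, edgeR adjusted p = 0.0199). All 11 FFPE tumours lay above the control median, although the groups overlapped. Its host gene did not move with it, with log2 fold changes of -0.26 in fresh-frozen tissue (edgeR adjusted p = 0.229) and 0.15 in FFPE tissue (0.711).

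Abundant members did not all differ between tumour and control. On chromosome 30 a 576 bp member (15109164 to 15109739) had 60.4, 106 and 223 CPM in fresh-frozen tumours and 94.9, 132 and 226 CPM in fresh-frozen controls (log2 fold change -0.25 ± 0.31, edgeR adjusted p = 0.562). A 384 bp member on chromosome 3 (58760362 to 58760745) had 61.9, 84.6 and 102 CPM in fresh-frozen tumours and 68.8, 82.8 and 114 CPM in fresh-frozen controls (-0.10 ± 0.18, edgeR adjusted p = 0.692). No tumour lay above every control for either gene. The 378 bp member on chromosome 32 (29400216 to 29400593) was higher in fresh-frozen tumours, with 97.4, 137 and 331 CPM against 39, 83.8 and 109 CPM in controls (0.95 ± 0.32, edgeR adjusted p = 0.0388). That call was lost without any 1 of 8 libraries, all but tumours 60127 and 60679 and controls 60462 and 60516, and without the 4 dogs (edgeR adjusted p = 0.143). The gene lying across it on the opposite strand was lower in the same tumours, at -2.66 (edgeR adjusted p = 0.0230), and in FFPE tumours, at -3.25 (0.00101).

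In fresh-frozen tissue, 226 members had enough counts for the test, and the other 390 did not. More of the called members were higher in tumour than lower. Higher in tumour were 63 members (27.9%), where 18.3% of all 15057 genes tested were higher, and lower were 10 (4.42%), where 12.2% of all genes were lower (edgeR quasi-likelihood test, adjusted p under 0.05). The median log2 fold change was 0.47 over the members and 0.10 over all genes tested. Without adjustment 98 members had a p under 0.05, as did 44.0% of all genes. Of the 63, 59 changed at least 2-fold and 14 at least 4-fold, and of the 10, 9 and 5. All tumours lay above all controls for 26 members (11.5%, against 6.35% of all genes), and below them for 4 (1.77%, against 5.13%). Without the 4 dogs that stood apart, 30 members were higher and 4 lower, and 25 of the 63 and 2 of the 10 kept their call. All 61 of the 63 that could still be tested, and all 10, kept their sign. Shares over all genes without these dogs are not given here. The count of lower members also hung on single libraries. It was 4 without control 60460 or control 60629, 6 without tumour 60631 and 16 without tumour 60679.

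The shortest band held most of the higher members. Of 118 tested members under 500 bp, 41 were higher and 2 were lower (median log2 fold change 0.89). Of 71 members from 500 to under 700 bp, 10 were higher and 5 were lower (median 0.02). Of 37 members of 700 bp or more, 12 were higher and 3 were lower (median 0.41). The bands also differ in abundance, with median levels of 1.54, 2.41 and 2.89 log2 CPM in order of length, and the part of abundance was not tested. Just below the lower length limit, 8 of 36 tested single-exon genes of 250 to 300 bp were higher (22.2%) and 1 was lower (2.78%). Just above it, 10 of 34 genes over 300 and up to 350 bp were higher (29.4%) and 1 was lower (2.94%). At the upper limit, of 12 tested genes from 850 to under 900 bp 4 were higher (33.3%) and 2 lower (16.7%). Of 9 from 900 to 950 bp 0 were higher and 1 lower (11.1%).

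By abundance, 8 of 31 members below 0 log2 CPM were higher (25.8%, with 8.18% of all genes at that level), 24 of 78 from 0 to 2 (30.8%, with 14.2%) and 14 of 79 from 2 to 4 (17.7%, with 20.1%). From 4 to 6 log2 CPM 9 of 27 were higher (33.3%, with 20.2%), and above 6 8 of 11 were higher (72.7%, with 18.3%). Lower were 1, 1, 5, 3 and 0 members in the same order, with 8.18%, 8.77%, 8.56%, 11.1% and 20.5% of all genes. No test of these shares was made. The extremes of the fresh-frozen list were picked by their values. Besides members described further on, a 408 bp gene on chromosome 2 (10497500 to 10497907) had a log2 fold change of 3.07 ± 0.57 and edgeR gave it an adjusted p of 0.00326. A 450 bp gene on chromosome 25 (27369231 to 27369680) followed at 2.67 ± 0.71 (edgeR adjusted p = 0.0146), and it stood at 0.81 in FFPE tissue (0.245). All 10 lower members lay outside other genes, and 6 of them were not called in FFPE tissue. Of these 6, a 606 bp gene on chromosome 9 (19833192 to 19833797) was at -2.42 ± 0.54 (edgeR adjusted p = 0.00674) and an 855 bp gene on chromosome 2 (78674817 to 78675671) at -2.29 ± 0.77 (0.0382), and neither had enough counts for the FFPE test. A 756 bp gene on chromosome 19 (41318149 to 41318904) was at -2.08 ± 0.49 in fresh-frozen tissue (edgeR adjusted p = 0.00901) and at -1.28 in FFPE tissue (0.0687).

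In FFPE tissue, 120 members were tested, 119 of them also tested in fresh-frozen tissue. Higher in tumour were 15 members (12.5%, with 10.1% of all 13338 genes higher), and lower were 6 (5.0%, with 11.1% of all genes lower). The median log2 fold change was 0.21 over the members and 0.02 over all genes tested. No member separated all tumours from all controls, as 0.127% of all genes did on the high and 0.277% on the low side. By length, 9 were higher and 2 lower of 52 members under 500 bp, 5 and 4 of 41 members from 500 to under 700 bp, and 1 and 0 of 27 members of 700 bp or more. Fewer members were called in some parts of the FFPE set. The cause was not tested, and shares over all genes in these parts are not given here. In the 14 libraries with a stated age, 0 members were higher and 2 lower, and 0 in either direction with age as a covariate, where 20 had an unadjusted p under 0.05. Without control 47198 the count of lower members was 3.

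**Figure D2:**
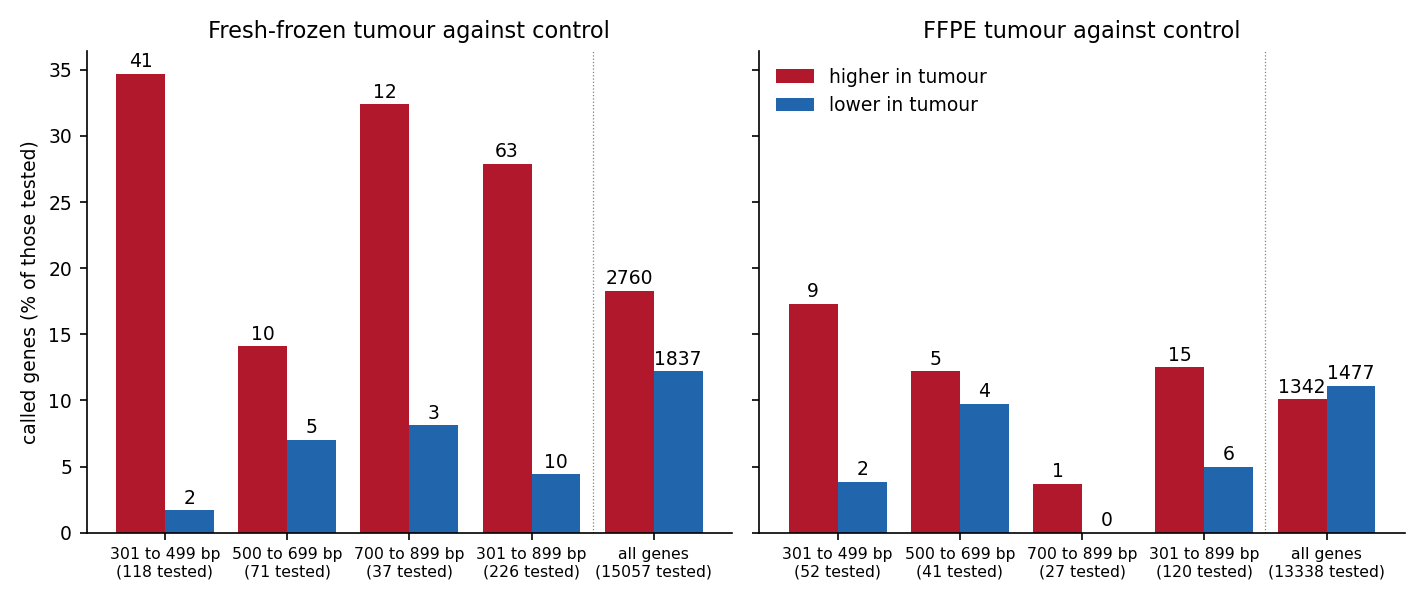
Share of tested genes (%) called higher (red) or lower (blue) in tumour than in control by edgeR at an adjusted p under 0.05, by length of the single-exon genes and for all genes, in fresh-frozen (left) and FFPE (right) tissue. Numbers on bars are genes. The band under 500 bp has 41 higher and 2 lower in fresh-frozen tissue, and 9 and 2 in FFPE tissue.

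Members called in the same direction in both tissues numbered 9 higher (7.56% of the 119, with 8.59% of all genes) and 4 lower (3.36%, with 6.52%), and 0 were called in opposite directions. The FFPE and fresh-frozen sets share 8 dogs but no library. Without the 4 dogs that stood apart, 4 of the 9 and 0 of the 4 kept the fresh-frozen call (edgeR). The 4 that kept it were those of 336 bp (adjusted p = 0.0284), 354 bp (0.0309), 648 bp (0.0284) and 321 bp (0.0284). Without the 8 shared dogs, 3 of the 9 (328, 354 and 585 bp) and 3 of the 4 (360, 597 and 324 bp) kept the FFPE call. In FFPE libraries with a stated age 0 of the 9 and 1 of the 4 kept it, and with age as a covariate or in the shared dogs alone 0 of the 13 did. The highest by the smaller fold change was the intronic 328 bp gene on chromosome 27, ENSCAFG00000028127. It had 158, 394 and 865 CPM in fresh-frozen tumours and 71.8, 114 and 197 CPM in fresh-frozen controls. Only tumour 60679, at 158 CPM, lay within the control range. The FFPE libraries had 136, 390 and 930 CPM in tumours and 64.9, 120 and 249 CPM in controls, and 7 of 11 tumours lay above every control. The log2 fold changes were 1.93 ± 0.41 in fresh-frozen tissue (edgeR adjusted p = 0.00533) and 1.73 ± 0.36 in FFPE tissue (0.00275). Its host gene on the same strand was higher too, by 1.44 in fresh-frozen tissue (edgeR adjusted p = 0.00907) and 1.11 in FFPE tissue (0.0148). The fresh-frozen call was lost without the 4 dogs that stood apart (edgeR adjusted p = 0.0582).

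ENSCAFG00000044682, of 336 bp on chromosome 10 (13200305 to 13200640), lies inside a gene of the opposite strand. It had 12.8, 20.3 and 42.1 CPM in fresh-frozen tumours and 2.31, 4.57 and 7.41 CPM in fresh-frozen controls. All 6 tumours lay above all 6 controls (2.29 ± 0.36, edgeR adjusted p = 0.00156). In FFPE tissue it had 4.60, 34.4 and 80.7 CPM in tumours and 1.95, 12.8 and 23.6 CPM in controls (1.61 ± 0.43, edgeR adjusted p = 0.0113). There 7 of 11 tumours lay above every control. Without the 8 shared dogs the FFPE value was 1.00 and the call was lost (edgeR adjusted p = 0.0615). The gene on the opposite strand had log2 fold changes of 0.12 in fresh-frozen tissue (edgeR adjusted p = 0.793) and 0.31 in FFPE tissue (0.451).

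Of the other 7 members higher in both tissues, 3 more separated the fresh-frozen groups fully. A 354 bp member on chromosome 25 (18586711 to 18587064) had 118, 206 and 283 CPM in fresh-frozen tumours and 59.1, 62.4 and 102 CPM in fresh-frozen controls (log2 fold change 1.52 ± 0.23, edgeR adjusted p = 0.00128). Its FFPE levels were 21.7, 59.8 and 139 CPM in tumours and 0, 17.3 and 48.4 CPM in controls (1.63 ± 0.45, edgeR adjusted p = 0.0136). The 648 bp member on chromosome 7 (59858761 to 59859408) had 46.0, 62.6 and 83.5 CPM in fresh-frozen tumours and 15.9, 17.1 and 28.8 CPM in fresh-frozen controls. Its log2 fold change was 1.72 ± 0.22 in fresh-frozen tissue (edgeR adjusted p = 0.000701) and 1.37 ± 0.41 in FFPE tissue (0.0221). The 321 bp member on chromosome 17 (52628350 to 52628670) had 26.2, 40.8 and 48.6 CPM in fresh-frozen tumours and 10.9, 14.3 and 16.3 CPM in fresh-frozen controls. It changed by 1.48 ± 0.20 in fresh-frozen tissue (edgeR adjusted p = 0.000784) and by 1.12 ± 0.37 in FFPE tissue (0.0317). That FFPE call was lost without any 1 of tumours 51234 and 60636 and controls 43323, 47198 and 50276. For each of these 3 genes all 6 fresh-frozen tumours lay above all 6 fresh-frozen controls.

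The remaining 4 did not separate the fresh-frozen groups fully. A 405 bp member on chromosome 9 (30696765 to 30697169) had log2 fold changes of 1.45 ± 0.29 in fresh-frozen tissue (edgeR adjusted p = 0.00432) and 1.13 ± 0.31 in FFPE tissue (0.0143), with 5 of 6 fresh-frozen tumours above every control. Its fresh-frozen call was lost without the 4 dogs (edgeR adjusted p = 0.0689) and after thinning (0.0892), and its FFPE call without the 8 shared dogs (0.114). A 585 bp member on chromosome 10 (26829089 to 26829673) changed by 1.25 ± 0.38 (0.0261) and 1.04 ± 0.27 (0.0108). Its fresh-frozen call was lost without any 1 of tumour 60461 and controls 60459, 60460, 60516 and 60629, and without the 4 dogs (edgeR adjusted p = 0.0577). A 651 bp member on chromosome 3 (91332502 to 91333152) changed by 0.77 ± 0.27 (0.0434) and 0.88 ± 0.30 (0.0413). It lost its fresh-frozen call without any 1 of 10 libraries, all but tumours 60631 and 60636, and its FFPE call without any 1 of 9. Its fresh-frozen adjusted p without the 4 dogs was 0.141 (edgeR). A 786 bp member on chromosome 26 (5701511 to 5702296) changed by 0.68 ± 0.21 (0.0276) and 0.78 ± 0.25 (0.0282). It lost its fresh-frozen call without any 1 of 7 libraries and its FFPE call without tumour 51234 or control 50276. Its fresh-frozen value without the 4 dogs was 0.49 (edgeR adjusted p = 0.103). The last 2 genes had the smallest fold changes of the 9.

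The 4 members lower in both tissues all lay outside other genes. ENSCAFG00000031261, of 360 bp on chromosome 5 (31307647 to 31308006), had 0.0948, 1.91 and 3.17 CPM in fresh-frozen tumours and 4.45, 11.8 and 15.5 CPM in fresh-frozen controls. All 6 tumours lay below all 6 controls, and the lowest tumour, 60749, held 1 count. In FFPE tissue it had 0.160, 5.22 and 16.5 CPM in tumours and 0, 24.3 and 88.3 CPM in controls. The control at 0 was that of dog 60462, where 3 counts would stand for 2.20 CPM, and all 11 tumours lay below the control median. The log2 fold changes were -2.48 ± 0.57 in fresh-frozen tissue (edgeR adjusted p = 0.00814) and -2.55 ± 0.61 in FFPE tissue (0.00630). Without the 4 dogs that stood apart, the fresh-frozen call was lost (edgeR adjusted p = 0.0626).

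ENSCAFG00000019384, of 597 bp on chromosome 20 (56474105 to 56474701), had 0.569, 4.07 and 19.8 CPM in fresh-frozen tumours and 18.8, 35.4 and 59.7 CPM in fresh-frozen controls. Only tumour 60679, at 19.8 CPM, reached the control range. Its FFPE levels were 0.718, 4.61 and 14 CPM in tumours and 4.39, 30.8 and 49.2 CPM in controls, and all 11 tumours lay below the control median. The log2 fold changes were -2.38 ± 0.73 in fresh-frozen tissue (edgeR adjusted p = 0.0268) and -2.45 ± 0.47 in FFPE tissue (0.00180). The fresh-frozen call was lost without any 1 of tumours 60461 and 60631 and controls 60459, 60460 and 60629, without the 4 dogs and with no filter on low counts (highest edgeR adjusted p = 0.0985 over the alternatives).

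By smaller amounts, a 324 bp member on chromosome 25 (3963326 to 3963649) had 0.569, 1.95 and 6.25 CPM in fresh-frozen tumours and 5.61, 12.0 and 15.6 CPM in fresh-frozen controls (-1.93 ± 0.55, edgeR adjusted p = 0.0197), a call lost without the 4 dogs (0.0555). In FFPE tissue its log2 fold change was -1.81 ± 0.56 (edgeR adjusted p = 0.0251), and that call was lost without control 47198 or control 50276. In the 8 shared dogs alone its FFPE value was -0.32 (edgeR adjusted p = 0.883), and without them -2.0 (0.0317). A 645 bp member on chromosome 29 (41503312 to 41503956) had 1.35, 2.26 and 6.08 CPM in fresh-frozen tumours and 4.54, 7.11 and 13.1 CPM in fresh-frozen controls (-1.43 ± 0.42, edgeR adjusted p = 0.0218). It changed by -1.34 ± 0.44 in FFPE tissue (edgeR adjusted p = 0.0331). Its calls were lost without control 60460, control 60629 or the 4 dogs (edgeR adjusted p = 0.0651) in fresh-frozen tissue, and without any 1 of 7 libraries in FFPE tissue. Tumour 60749 was the lowest fresh-frozen tumour for the 360, 597 and 324 bp genes.

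**Figure D3:**
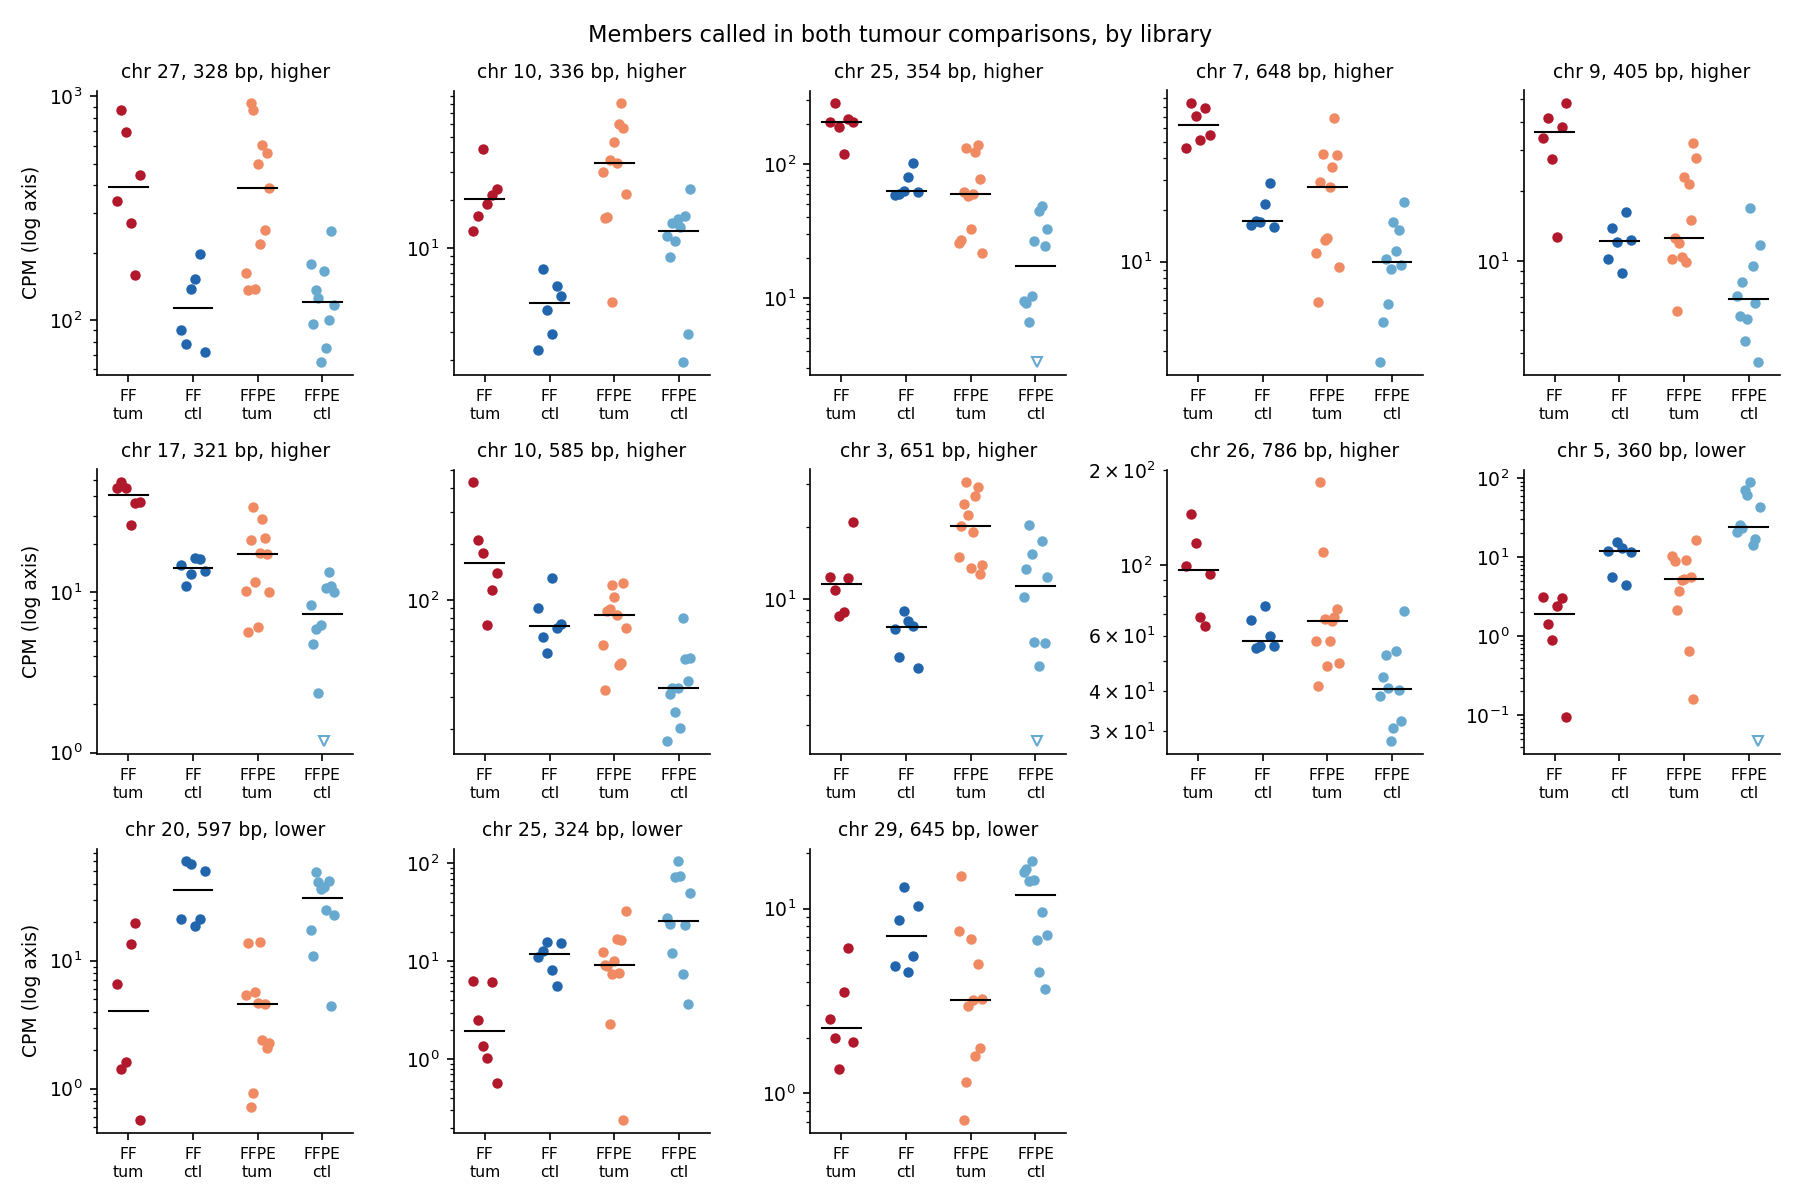
Level in each library (CPM, log axes that differ between panels) of the 13 members called in the same direction in both tumour comparisons, for fresh-frozen tumours (FF tum), fresh-frozen controls (FF ctl), FFPE tumours and FFPE controls. Lines are medians and open triangles are libraries with 0 counts, drawn below the lowest value. The chromosome 10 gene of 336 bp and the chromosome 5 gene of 360 bp separate all 6 fresh-frozen tumours from all 6 controls.

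Members called in frozen tissue had the same sign in archived tissue wherever both could be tested, and 29 of these 42 did not pass the FFPE test. Of the 73 called in fresh-frozen tissue, 31 had too few counts for it. Of the 63 members higher in fresh-frozen tumours 35 were tested in FFPE tissue, and all 35 had a positive log2 fold change, with a median of 0.81 there. Over all genes higher in fresh-frozen tumours, 97.2% of the 2494 tested in FFPE tissue were positive. The FFPE test called 9 of the 35 (25.7%), against 44.9% over all genes. Of the 10 lower members 7 were tested in FFPE tissue, all 7 were negative, and 4 were called (57.1%). Over all genes lower in fresh-frozen tumours, 98.8% of the 1627 tested in FFPE tissue were negative and 52.3% were called. In the FFPE libraries of dogs that gave no fresh-frozen library (6 tumours, 7 controls), 30 of 31 tested were positive (96.8%, against 96.3% over all genes), with a median of 0.76. There 3 of the 31 were called (9.68%, against 19.2% over all genes), and all 6 tested lower members were negative, with 3 called. Over all genes lower in fresh-frozen tumours, 96.1% of those tested were negative there and 26.7% were called. The share with the same sign was thus close to that of all genes.

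**Figure D4:**
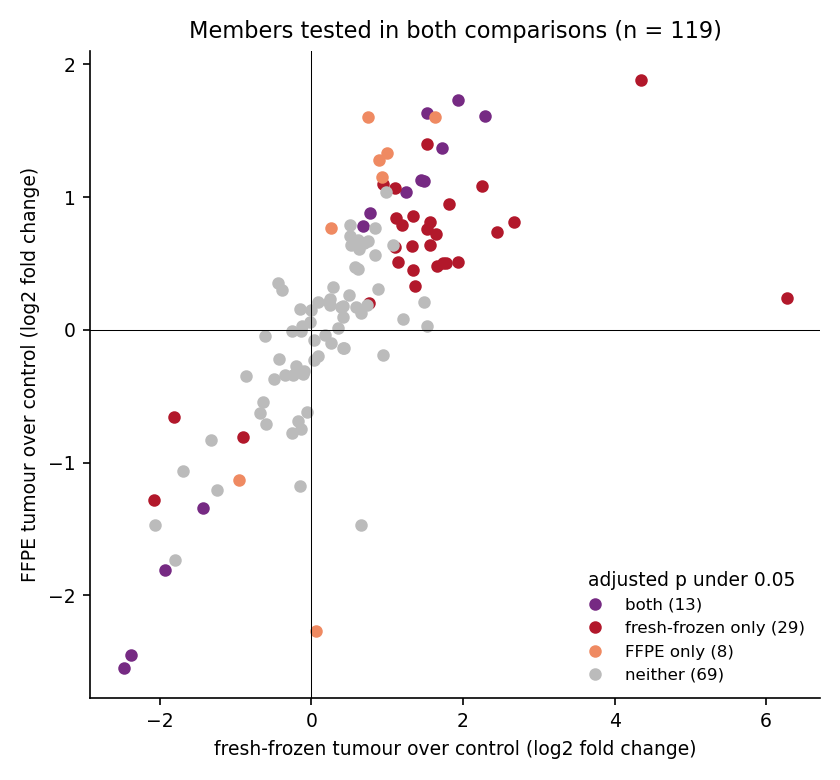
Log2 fold change of FFPE tumour over FFPE control (y axis) against that of fresh-frozen tumour over fresh-frozen control (x axis) for the 119 members tested in both. Colours show in which comparison edgeR gave an adjusted p under 0.05: 13 members in both, 29 in fresh-frozen tissue only, 8 in FFPE tissue only and 69 in neither. The point at the far right is the 744 bp gene on chromosome 24, at 6.27 in fresh-frozen and 0.24 in FFPE tissue.

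The member with the largest fold change in frozen tissue was a 744 bp gene on chromosome 24 (43590339 to 43591082), which lay 12282 bp from the nearest gene. It had 0.495, 3.52 and 13.1 CPM in fresh-frozen tumours and 0, 0.0287 and 0.173 CPM in fresh-frozen controls. The tumours held 11 to 138 counts each, 439 together, and the controls 0 to 3 counts each, 6 together. The ratio of the groups' shares of all counts was 80.2, with an exact 95% interval of 36.6 to 220 that covers counting error only. The log2 fold change was 6.27 ± 1.00 (edgeR adjusted p = 0.00161). It ran from 5.56 to 6.87 over the 17 of 19 alternatives in which the gene was tested, all of which kept the call. In FFPE tissue the groups overlapped: it had 0.364, 4.24 and 29.1 CPM in tumours and 0, 2.52 and 26.8 CPM in controls (0.24 ± 0.83, edgeR adjusted p = 0.861). The FFPE libraries held 406 counts in the tumours and 224 in the controls. FFPE controls 61478 and 47198, at 26.8 and 13.8 CPM, were above the highest fresh-frozen tumour, on scales set separately for each kind of tissue, and neither dog gave a fresh-frozen library. The FFPE controls of dogs 60126, 60460 and 60462 had 0, 2.16 and 0.732 CPM, where the fresh-frozen controls of the same dogs had 0, 0 and 0.0825 CPM.

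The difference between the tumour effects in FFPE and fresh-frozen tissue was tested as an interaction over all 33 libraries. The fit had no term for the dog and took both libraries of a shared dog as independent. The interaction test called 0 of 215 members (edgeR), as it called 0% of all 15714 genes. Without adjustment 12 members and 575 genes (3.66%) had a p under 0.05. DESeq2 called 1 member, this chromosome 24 gene, and 7 genes in all. The gene had the smallest p among the members (interaction log2 fold change -5.76 ± 1.49, unadjusted p = 0.000475 and adjusted p = 0.829, both by edgeR). The next 2 by p were a 612 bp gene on chromosome 1 (14985769 to 14986380) and a 477 bp gene on chromosome 11 (52047550 to 52048026). The 612 bp gene had 0.359, 1.07 and 3.02 CPM in FFPE tumours and 0.682, 5.80 and 17.8 CPM in FFPE controls (log2 fold change -2.27 ± 0.49, edgeR adjusted p = 0.00333). These were 1 to 19 counts in the tumours, where 3 counts stand for 0.241 to 1.61 CPM, and 1 to 76 counts in the controls. The gene was tested in 10 of the 21 FFPE fits with 1 library left out, and all 10 kept the call. In fresh-frozen tissue it had 0.513, 1.34 and 3.53 CPM in tumours and 0.709, 1.65 and 2.02 CPM in controls (0.06 ± 0.52, edgeR adjusted p = 0.937). Its interaction did not pass (-2.24 ± 0.76, edgeR adjusted p = 1.00). The 477 bp gene had log2 fold changes of 1.52 ± 0.57 in fresh-frozen tissue (edgeR adjusted p = 0.0558) and 0.03 ± 0.30 in FFPE tissue (0.958).

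The 4 exact lengths dropped on part of chromosome 35 also occur elsewhere, in 33 members. A length alone does not assign a gene to a family. In fresh-frozen tissue 11 were tested, 2 were higher and 0 lower (median log2 fold change 0.91), and in FFPE tissue 2 of 6 were higher and 0 lower (median 0.86). Over all genes 18.3% were higher in fresh-frozen tumours, close to 2 of 11, and 10.1% in FFPE tumours. Of the dropped chromosome 35 genes, 20 of 23 tested were higher in fresh-frozen tumours (median 2.31).

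Several of the 33 stand in an array of 8 members on chromosome 17 (59121976 to 59182968), none longer than 414 bp, that held 20535 counts. The gene at 59174999 to 59175379 had 31.2, 51.1 and 70.3 CPM in fresh-frozen tumours and 11.3, 21.6 and 38.2 CPM in fresh-frozen controls (log2 fold change 1.10 ± 0.30, edgeR adjusted p = 0.0161, and 0.0384 without the 4 dogs that stood apart). Its neighbour at 59176251 to 59176643, 871 bp away, had 4.52, 14.1 and 20.8 CPM in fresh-frozen tumours and 6.61, 12.2 and 21.9 CPM in fresh-frozen controls (0.09 ± 0.39, edgeR adjusted p = 0.881). One of this close pair was thus called and the other was not. The difference between them was not tested. The gene at 59121976 to 59122386 changed by 2.50 (edgeR adjusted p = 0.0106) and the one at 59129682 to 59129993 by 0.99 (0.151) in fresh-frozen tissue. In FFPE tissue the gene at 59129682 was called higher, at 1.33 (edgeR adjusted p = 0.0419).

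Of the same 33, a gene on chromosome 27 (31840011 to 31840322) had 1.6, 4.67 and 12.6 CPM in FFPE tumours and 0, 2.23 and 4.04 CPM in FFPE controls (1.28 ± 0.44, edgeR adjusted p = 0.0404). Of the 11 tumours 6 lay above every control, and the call was lost without any 1 of 9 libraries. A gene on chromosome 14 (603816 to 604196) had 11.5, 16.6 and 75.8 CPM in fresh-frozen tumours and 11.3, 11.8 and 15 CPM in fresh-frozen controls (1.07 ± 0.43, edgeR adjusted p = 0.0753).

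Beyond the dropped lengths, the same part of chromosome 35 still held 8 members, and the 4 of them with enough counts were all higher in fresh-frozen tumours. They were singled out after their values were seen. The 387 bp gene at 25005826 to 25006212 had 2.63, 8.70 and 26.3 CPM in fresh-frozen tumours and 0.642, 0.873 and 1.33 CPM in fresh-frozen controls (log2 fold change 3.40 ± 0.56, edgeR adjusted p = 0.00194). The 390 bp gene at 25030551 to 25030940 had 3.21, 5.90 and 16.2 CPM in fresh-frozen tumours and 0.798, 1.73 and 2.19 CPM in fresh-frozen controls (2.14 ± 0.45, edgeR adjusted p = 0.00530). In both, all 6 tumours lay above all 6 controls, and dog 60631 was the highest. The 681 bp gene at 25046023 to 25046703 had 0.765, 41.2 and 115 CPM in fresh-frozen tumours and 1.02, 1.79 and 6.01 CPM in fresh-frozen controls (4.35 ± 0.83, edgeR adjusted p = 0.00367). Here 5 tumours had 21.1 CPM or more, above every control, while tumour 60679, at 0.765 CPM, lay below every control. Without the 4 dogs that stood apart the call was lost (edgeR adjusted p = 0.0559). The FFPE tumour of dog 60679 was again the lowest of its group, at 0.401 CPM, in a group with a median of 14 CPM. That of the FFPE controls was 2.83 CPM (1.88 ± 0.73, edgeR adjusted p = 0.0673). The 330 bp gene at 24145250 to 24145579 changed by 2.42 ± 0.62 in fresh-frozen tissue (edgeR adjusted p = 0.0124). Without the 4 dogs the genes of 387, 390 and 330 bp kept their calls (edgeR adjusted p = 0.0334, 0.0490 and 0.0492).

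Members were also compared between FFPE and fresh-frozen tissue. In the 8 dogs with both kinds of tissue, 1 of 265 tested members was higher in FFPE than in fresh-frozen libraries (0.377%, with 2.81% of all 17097 genes) and 0 were lower (0.135% of all genes, 2.95% in either direction). This fit had terms for tissue and preservation but none for the dog, so it did not pair the libraries of an animal. Without adjustment 38 members had p under 0.05 (edgeR), as did 17.3% of all genes, and DESeq2 called 9 higher and 2 lower. The median log2 fold change of FFPE over fresh-frozen was -0.29 over the members and -0.05 over all genes. With the dog as a block, which pairs the libraries of an animal, 3 members were higher and 2 lower. In all 33 libraries, which are not of the same dogs, 35 were higher and 57 lower. Shares over all genes are not set beside the counts of these alternatives, so they are not read as particular to the members. The count of higher members was 3 without dog 60126, 2 without dog 60749 and 0 without dog 60679.

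The called member had 302 bp and lay on chromosome 5 (69072103 to 69072404), inside a gene of the opposite strand. Its CPM here are counts relative to each library's total counts, without TMM factors. In the FFPE tumours of dogs 60127, 60461, 60636, 60679 and 60749 it had 8.08, 4.62, 29.7, 22.2 and 41.4 CPM. In their fresh-frozen tumours it had 1.35, 2.09, 12.5, 1.92 and 3.17 CPM. In control dogs 60126, 60460 and 60462 it had 9.58, 21.6 and 81.4 CPM in FFPE tissue and 3.97, 6.48 and 4.51 CPM in fresh-frozen tissue. The FFPE library was the higher one in all 8 dogs. The log2 fold change was 2.64 ± 0.54 (edgeR adjusted p = 0.0120), and with the dog as a block 2.47 ± 0.41 (0.00939). The block also called a gene on chromosome 3 at 61312879 to 61313271 (2.44 ± 0.60, edgeR adjusted p = 0.0399) and a 795 bp gene on chromosome 9 at 48452622 to 48453416 (1.49 ± 0.36, 0.0364) higher in FFPE libraries. It called a 663 bp gene on chromosome 9 at 37652545 to 37653207 (-1.03 ± 0.23, 0.0264) and a 459 bp gene on chromosome 13 at 13580884 to 13581342 (-1.51 ± 0.38, 0.0421) lower.

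Shorter single-exon genes had larger values in this comparison. Single-exon genes of at most 300 bp had a median FFPE over fresh-frozen log2 fold change of 2.60, and 341 of 786 tested were higher. Along the length scale the median was 2.61 up to 100 bp, 3.17 over 100 and up to 150 bp, 2.26 over 150 and up to 200 bp, 0.39 over 200 and up to 250 bp and 0.50 over 250 and up to 300 bp. Among members it was 0.09 up to 350 bp, -0.29 over 350 and up to 400 bp, -0.37 up to 500 bp, -0.27 up to 600 bp, -0.31 up to 700 bp, -0.16 up to 800 bp and -0.39 over 800 bp. It was -0.09 from 900 to 1000 bp. Just below the lower limit, 8 of 43 tested genes of 250 to 300 bp were higher, and just above it 1 of 38. At the other end 0 of 12 genes from 850 to under 900 bp and 0 of 11 from 900 to 950 bp were called. Single-exon genes of 900 bp or more had a median of -0.13, with 4 of 444 tested higher and 1 lower. The chromosome 5 gene of 302 bp and the shortest member on chromosome 7 held the 2 largest fold changes among members of up to 350 bp, at 2.64 and 3.05 (edgeR adjusted p = 0.0120 and 0.108).

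**Figure D5:**
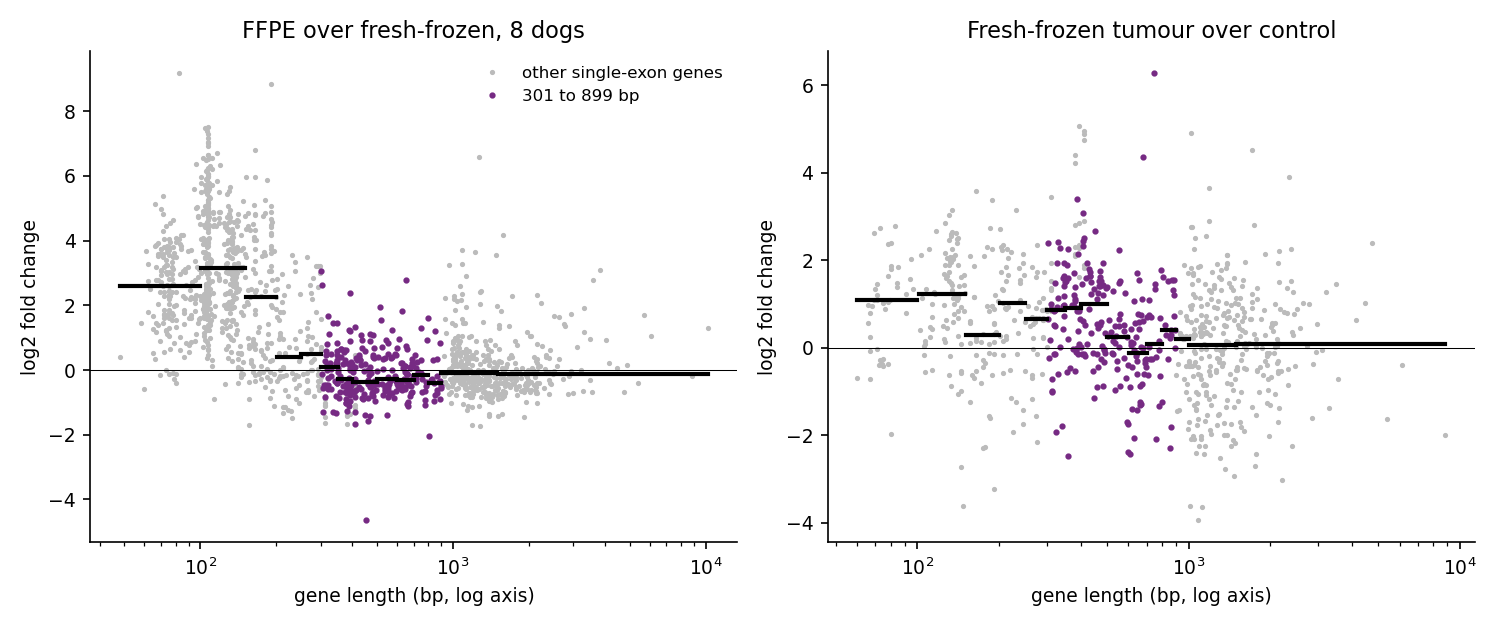
Log2 fold change of single-exon genes on chromosomes 1 to 38 against gene length (bp, log axis): FFPE over fresh-frozen in 8 dogs (left) and fresh-frozen tumour over control (right). Purple points are the members, grey points other single-exon genes, including those dropped on chromosome 35, and black lines the medians of length bins. On the left the median is 3.17 over 100 and up to 150 bp and 0.09 over 300 and up to 350 bp, and on the right it is 0.86 over 300 and up to 350 bp and -0.13 over 600 and up to 700 bp.

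Members inside a gene of the opposite strand were set beside that gene. The libraries and the counting keep the strands apart, per the labels and the file headers. In fresh-frozen tissue 19 of 57 tested members in this position were higher and 0 lower, and 43 and 10 of 167 members outside other genes. Over all genes 18.3% were higher and 12.2% lower, and the difference between the positions was not tested. For 49 of the 57 the other gene was tested too, and the 2 log2 fold changes had the same sign in 26. Over these 49 the other gene was called higher for 9 and lower for 10. Of the 16 higher members among the 49, the other gene was called higher for 2 and lower for 4. The median log2 fold change of those 16 genes was -0.17.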

How the data were processed

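Total RNA of 33 brain samples was sequenced with a forward-stranded kit carrying 12 nt molecular identifiers, per the labels' protocols. Whether they served to collapse duplicate reads is not stated in the labels. The authors deposited raw counts per gene, made with featureCounts 1.6.0 (strand option 1, mapping quality of at least 10) on Ensembl release 100 gene models and CanFam3.1, per the file headers. Reads were trimmed with fastp and aligned with STAR, per the submitters' processing notes.

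The whole table was tested with edgeR's quasi-likelihood test (version 4.0.16, R 4.3.3) after filterByExpr and TMM scaling, with Benjamini-Hochberg adjustment at 0.05. Standard errors are the log2 fold change divided by the square root of F. The scripts were tested on simulated data. Fits were made within fresh-frozen libraries, within FFPE libraries, on the 8 dogs with both, and as an interaction over all libraries. None of these main fits had a term for the dog. DESeq2 1.42.0, other scaling and filters, thinning, left-out libraries, age and the dog as a block were alternatives.

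Depth ran from 406406 to 32584840 counts, and intervals and floors cover counting error only. No pair of libraries in a group agreed within sampling noise (chi-square per degree of freedom 17.2 to 493.6). Dog numbers in the labels name the animal, and in 7 of 8 dogs the deviations of its libraries correlated above 0.1. In 5 of the 8 the fresh-frozen library correlated best with the FFPE library of its own dog. Those of dogs 60126, 60461 and 60636 correlated better with another dog's, so the counts do not settle the pairing of these dogs.

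The members and lists were chosen with earlier results of these data known. Named members were those called in the same direction in both tumour comparisons (up to 10 each way), those called between FFPE and fresh-frozen tissue (up to 5 each way), the 8 with the highest CPM per kb in fresh-frozen controls, up to 4 of length 312, 381, 393 or 411 bp, and the 3 with the smallest interaction p. The members on the dropped part of chromosome 35, the extremes of the fresh-frozen list, the other genes of the chromosome 17 array and the shortest member on chromosome 7 were added after their values were seen. Sequences and gene names were not used here.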

Additional observations from a re-analysis of the deposited data

Results flagged for a closer look

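In groups of 4 to 10 libraries, the lowest or highest library was set against the others by Dixon's test. The test used log2 CPM for the named members and percentages for the members' share of counts. Of 93 groups tested 8 had a library beyond the 95% limit, where chance gives about 1 in 20. All 8 were of named members, and their values are given below as plain CPM. The FFPE control of dog 50315, the shallowest library, had 0.0 CPM for the 354 bp gene on chromosome 25 (others 6.66 to 48.4), 0.0 for the 321 bp gene on chromosome 17 (others 2.37 to 13.4) and 0.0 for the 651 bp gene on chromosome 3 (others 5.27 to 20.4). In that library 3 counts stand for 10.2 CPM. The FFPE control of dog 60462 had 0.0 CPM for the 360 bp gene on chromosome 5 (others 14.3 to 88.3), where 3 counts stand for 2.20 CPM.

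Among fresh-frozen libraries, control 60460 had 39 CPM for the 378 bp gene on chromosome 32 (others 81.2 to 109). For the chromosome 14 gene at 603816, tumour 60461 had 75.8 CPM (others 11.5 to 21.5) and control 60462 had 15 CPM (others 11.3 to 12.3). Tumour 60679 had 0.765 CPM for the 681 bp gene on chromosome 35 (others 21.1 to 115).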

How the results depend on the processing

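None of the 36 calls of named members changed sign under the alternatives run. Of 160 settings for counts and shares 118 stayed within 1.5 times or 1 SD. In fresh-frozen tissue, higher members numbered 37 with a mean of at least 50 counts, 12 thinned to the shallowest library and 30 without dogs 60126, 60127, 60461 and 60462, and lower ones 18 by DESeq2, 0 thinned and 4 without these dogs. In FFPE tissue, higher members numbered 5 thinned, 0 with age as a covariate, 0 in libraries with a stated age, 5 without the 8 shared dogs and 0 in these alone. Lower ones numbered 12 by DESeq2, 15 with no filter, 0 thinned, 0 with age, 2 with a stated age, 3 without the shared dogs and 0 in these alone. The stated-age set without the covariate and the shared dogs alone were chosen after seeing the data. For FFPE over fresh-frozen, higher members numbered 2 with RLE scaling, 9 by DESeq2, 2 with mitochondrial genes left out, 0 thinned, 3 with the dog as a replicate block and 35 in all 33 libraries, and lower ones 2 by DESeq2, 2 with the block and 57 in all libraries. DESeq2 called 1 lower member in the interaction, and the block called 0. Members higher in both tumour comparisons numbered 16 by DESeq2 and 4 thinned, and lower in both 7 and 0. Without the most abundant member the share was 0.297% in FFPE tumours and 0.194% in FFPE controls. Leaving out 1 library gave 43 to 62 higher and 4 to 16 lower members in fresh-frozen tissue, 10 to 18 and 3 to 9 in FFPE tissue, and 0 to 3 and 0 between tissues. Shares over all genes are not set beside these counts, and the causes were not tested. After thinning 22 members were tested in fresh-frozen and 15 in FFPE tissue.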
